A study of Mus musculus with 17 samples.

Results

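Lung expression of 9 genes was followed in allergic airway disease of the mouse. They encode activin subunits (Inhba, Inhbb), follistatin and its relatives (Fst, Fstl1, Fstl3) and inhibitors of bone morphogenetic protein (BMP) signalling (Grem1, Bambi, Nog, Chrd). The genes were listed by name and taken from 19751 genes with a probe set of 1 symbol. All 9 were measured, each by 1 probe set. The 17 Balb/c mice formed 3 groups. The anti-RGMb group (6 mice) was sensitized to and challenged with OVA (ovalbumin, an egg protein used as allergen) and received the aRGMB monoclonal antibody. The isotype group (5 mice) had the same OVA steps and an isotype antibody. The saline group (6 mice) had saline at both steps, and its labels name no antibody. The labels give no group with aRGMB antibody but without OVA, and they give no age. Lungs were taken at the same time point in all groups, in 2 experiments. Experiment 1 held 3 mice of each group (mice 1, 2 and 3), and experiment 2 held 3 anti-RGMb, 2 isotype and 3 saline mice (named 1-2, 2-2 and 3-2).

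Activins are dimers of inhibin beta chains. Inhba encodes the beta A chain of activin A, and Inhbb encodes the beta B chain of activin B. The dimers bind activin type II receptors, which recruit a type I receptor, and Smad2 and Smad3 carry the signal to the nucleus. Follistatin wraps around activin and blocks both receptor sites. BMPs use related receptors and other Smads, and are held off outside the cell by noggin, chordin and gremlin, while Bambi is a receptor-like decoy without a kinase. RGMb is a BMP co-receptor that binds neogenin, and activin A is known as a cytokine released in allergic airways.

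Promoter windows of the activin chain genes are shown because these genes had different patterns over the groups. They are the 250 bases before 1 start per gene taken from a RefSeq promoter table (build GRCm38.p6), 5′ to 3′ on the gene's strand. For Inhbb that start is the edge of the RefSeq gene. For Inhba it lies inside the gene, whose RefSeq span begins further upstream, so the positions given for Inhba hold for that start alone. Capitals mark a TATA box (TATAAA) or a GC box (GGGCGG), searched on both strands. Inhba lies at chr13:16011601-16011850 on the plus strand and Inhbb at chr1:119422249-119422498 on the minus strand.
Inhba: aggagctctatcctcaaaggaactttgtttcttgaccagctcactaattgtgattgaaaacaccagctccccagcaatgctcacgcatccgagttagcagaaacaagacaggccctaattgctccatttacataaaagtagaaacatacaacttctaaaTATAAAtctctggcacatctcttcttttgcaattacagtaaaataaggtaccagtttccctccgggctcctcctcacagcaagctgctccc
Inhbb: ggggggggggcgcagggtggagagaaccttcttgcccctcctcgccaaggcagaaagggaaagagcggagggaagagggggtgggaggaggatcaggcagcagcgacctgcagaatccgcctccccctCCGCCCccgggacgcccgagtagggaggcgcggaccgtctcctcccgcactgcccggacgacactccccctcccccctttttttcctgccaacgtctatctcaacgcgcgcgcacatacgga
The Inhba window held 43.2% G and C and the Inhbb window 68.0%, against a median of 52.4% over 32851 promoter windows of the same length. TATAAA stood 91 to 86 bases before that start of Inhba and was found in 12.4% of all windows. GGGCGG stood, on the opposite strand, 122 to 117 bases before the start of Inhbb and was found in 32.7% of all windows. The AP-1 word TGANTCA (6.75% of all windows), the CRE word TGACGTCA (1.55%) and a STAT6 motif (5.85%) were in the window of neither gene, nor was the short SMAD word CAGAC (42.2%). Entries existed for 6 of the 9 genes. The windows of the other 4 genes with an entry (Chrd, Fstl1, Fstl3 and Grem1) held 68.0% to 78.0% G and C, and all 4 held GGGCGG. The Fstl3 window also held TATAAA, on the opposite strand, 29 to 24 bases before its start. Fstl3 and Grem1 held CAGAC.

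Levels are array intensity as deposited, and their log2 is used for differences. Array medians were 120.5 to 124.8 in experiment 1 and 362.1 to 386.2 in experiment 2, so levels are compared within an experiment, or as the log2 level above the saline mean of the same experiment. Differences come from a limma fit over all genes with the experiment as a fixed block, are given ± SE, and were called where the p adjusted by Benjamini-Hochberg across the 19751 genes was under 0.05. All tests were 2-sided. The surfactant genes Sftpc, Sftpb, Sftpa1 and Sftpd, Scgb1a1, Ager and Cldn18 lay at or above the 98.1st percentile on every array and Nkx2-1 at or above the 88.1st, as lung tissue would have them. No pair of arrays held identical values. The labels name separate mice and give no cage or litter.

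Inhba was the member with the largest change. In experiment 1 its intensity was 172, 128 and 93.7 in anti-RGMb mice, 304, 408 and 222 in isotype mice, and 81.8, 83.8 and 95.6 in saline mice. In experiment 2 it was 285, 263 and 321 in anti-RGMb mice, 1307 and 1595 in isotype mice, and 239.9, 240.3 and 215 in saline mice. All 5 isotype mice lay above every other mouse of their experiment, whereas anti-RGMb and saline mice overlapped in experiment 1. Inhba was dim in saline mice, between the 37.2nd and the 43.3rd percentile of the arrays, so its fold rests on a low baseline. Anti-RGMb mice of experiment 2 were at the 40.8th to 45.0th percentile. Inhba rose by 2.15 ± 0.20 log2 units in isotype over saline mice, that is 4.44-fold (limma adjusted p = 1.3e-07), and 0.395% of all genes rose at least as much. It fell to 0.43 ± 0.32 above the saline mean in anti-RGMb mice (SD, n = 6), against 2.13 ± 0.57 in isotype mice (SD, n = 5). That difference was -1.72 ± 0.20 (limma adjusted p = 1.4e-05), and 12 genes, or 0.0608%, Inhba included, had a difference at least as far below 0. Isotype mice were above anti-RGMb mice in both experiments for 7.26% of all genes. The anti-RGMb minus saline difference was 0.43 ± 0.19 (95% interval 0.04 to 0.82), which did not pass (limma adjusted p = 0.197). These comparisons share mice, so they are not independent of each other.

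The rise of Inhba in isotype over saline mice was 1.80 in experiment 1 and 2.64 in experiment 2, and the anti-RGMb minus isotype difference was -1.25 and -2.32. The differences between the experiments were 0.84 ± 0.31 (limma adjusted p = 0.304, unadjusted 0.014) and -1.08 ± 0.31 (limma adjusted p = 0.159, unadjusted 0.0030). Neither passed after adjustment. Of all genes, 10.1% and 11.3% had an unadjusted p under 0.05 for such a difference. Markers of interstitial macrophages moved alongside. Of 10 markers, 9 were higher in isotype than in saline mice and 9 were lower in anti-RGMb than in isotype mice, with Cx3cr1 the exception both times (-0.14 and 0.15). Their summed intensity was 168% to 195% of the saline mean in anti-RGMb mice, 226% to 289% in isotype mice and 91.4% to 107% in saline mice. Of 7 alveolar macrophage markers, 4 were higher and 1 lower in isotype than in saline mice, and 2 were lower in anti-RGMb than in isotype mice. Their sum was 162% to 259% in anti-RGMb, 186% to 335% in isotype and 96.7% to 104% in saline mice, with anti-RGMb below isotype mice in both experiments. Of 10 mast cell and basophil markers, 7 were higher and 2 lower in isotype than in saline mice (median 0.47), and 2 were higher and 1 lower in anti-RGMb than in isotype mice. The summed intensity of these 10 mast cell and basophil markers was 92.0% to 109% in anti-RGMb, 95.7% to 112% in isotype and 97.3% to 103% in saline mice. Of all genes, 14.6% were called higher and 21.0% lower in isotype against saline mice. In anti-RGMb against isotype mice 11.1% were called higher and 10.0% lower. The part of these cell types in the Inhba result was not tested. In whole lung, fewer cells of a type and less RNA per cell cannot be told apart.

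**Figure D1:**
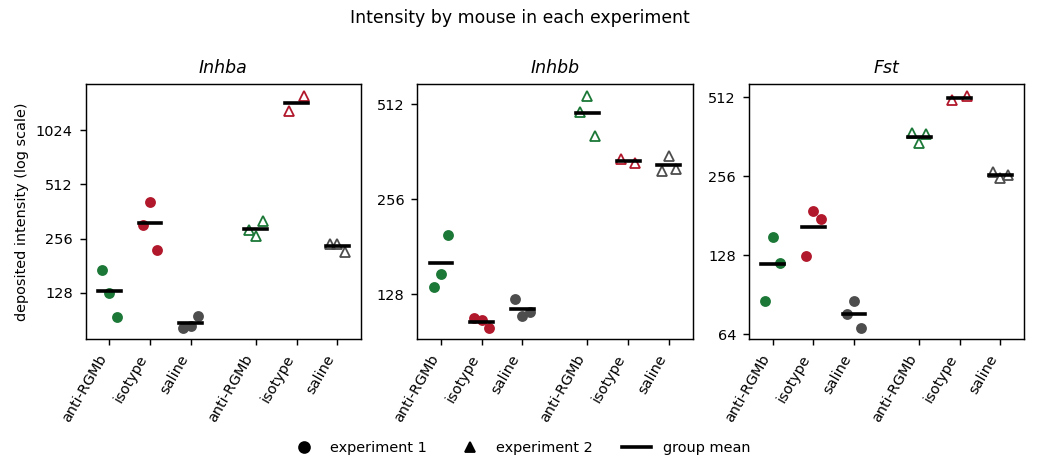
Deposited intensity (log axis) of Inhba, Inhbb and Fst in each mouse, by group, with experiment 1 as filled circles and experiment 2 as open triangles; bars are group means. Inhba and Fst were highest in isotype mice of both experiments by group mean, and Inhbb was highest in anti-RGMb mice.

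Inhbb, the other activin chain gene, had another order of groups. In experiment 1 its intensity was 134, 149 and 198 in anti-RGMb mice, 108, 106 and 100.03 in isotype mice, and 123, 109 and 112.5 in saline mice. In experiment 2 it was 486, 547 and 407 in anti-RGMb mice, 343 and 335 in isotype mice, and 314, 352 and 319.8 in saline mice. Inhbb lay at the 49.9th to 59.9th percentile of the arrays in anti-RGMb, the 44.1st to 46.6th in isotype and the 44.7th to 49.2nd in saline mice. Every anti-RGMb mouse lay above every isotype and every saline mouse of its experiment. Such a separation from isotype mice in both experiments, upward, was seen in 7.57% of all genes and from saline mice in 4.70% (3.88% downward). Inhbb was higher by 0.55 ± 0.09 in anti-RGMb than in isotype mice (1.47-fold, limma adjusted p = 0.00026), with 0.60 and 0.49 in experiments 1 and 2. Over saline mice it was higher by 0.50 ± 0.08 (1.41-fold, limma adjusted p = 0.0010), with 0.46 and 0.54. Called differences at least as large were found in 1.18% of all genes against isotype and 2.19% against saline mice. Both differences passed in each experiment (limma adjusted p = 0.0090 and 0.018 against isotype, 0.049 and 0.023 against saline). The fit behind these values shared its estimate of the spread over all 17 mice, so the experiments were not tested independently. The isotype minus saline difference was -0.05 ± 0.09 (95% interval -0.24 to 0.13), not past the threshold (limma adjusted p = 0.701). This set of calls, higher than both other groups with no call between those, was shared by 0.0608% of all genes.

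The anti-RGMb mouse with the highest Inhbb of experiment 1, mouse 3, also had the highest summed adipose markers of all mice (166% of the saline mean over 5 markers), and 129% for the 6 mesothelial and 154% for the 8 heart muscle markers. The other 5 anti-RGMb mice had adipose sums of 83.3% to 119%, isotype mice 77.3% to 93.0% and saline mice 87.2% to 122%. Mesothelial sums reached 69.0% in isotype and 112% in saline mice, and heart muscle sums 69.2% and 175%. Anti-RGMb mouse 2-2 had a similar log2 level of Inhbb above saline (0.74, against 0.78 in mouse 3) with an adipose sum of 86.2%. In mouse 2-2 the mesothelial sum was 90.7% and the heart muscle sum 45.8%. Anti-RGMb mouse 1 had the lowest log2 level of Inhbb above saline of its group (0.23) with an adipose sum of 119%. In mouse 1 the mesothelial sum was 122% and the heart muscle sum 100%. Fabp4 stood in both the adipose and the alveolar macrophage list. The part of these tissues was not tested. Without anti-RGMb mouse 3 Inhbb was higher by 0.48 over isotype (limma adjusted p = 0.00040) and by 0.43 over saline mice (adjusted p = 0.0017).

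Fst, the activin-binding antagonist, had the order of groups of Inhba, with smaller steps from isotype mice to either other group. The step from saline to anti-RGMb mice was not smaller (0.54, against 0.43 for Inhba). In experiment 1 it was 85.7, 150.2 and 119.5 in anti-RGMb mice, 128, 189.5 and 176 in isotype mice, and 76.6, 85.8 and 67.8 in saline mice. In experiment 2 it was 373, 343 and 373 in anti-RGMb mice, 501 and 521 in isotype mice, and 267, 253 and 259 in saline mice. Isotype mice lay above saline mice in both experiments, while anti-RGMb mice were apart from either group only in experiment 2. Fst was dim in saline mice, at the 35.5th to 41.4th percentile of the arrays. Fst rose by 1.03 ± 0.12 in isotype over saline mice (2.05-fold, limma adjusted p = 1.9e-06). It was lower by 0.50 on the log2 scale in anti-RGMb than in isotype mice (-0.50 ± 0.12, limma adjusted p = 0.0054) and higher by 0.54 ± 0.11 than in saline mice (adjusted p = 0.0056). The difference from isotype mice was -0.49 in each experiment, and neither that nor the difference from saline passed within 1 experiment (adjusted p of 0.063 to 0.160).

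Set side by side within each mouse, the change of Inhba from saline exceeded that of Fst by 1.09 ± 0.63 log2 units in isotype mice (SD, n = 5), with a lowest value of 0.15. In anti-RGMb mice the corresponding value was -0.10 ± 0.48 (SD, n = 6), from -0.54 to 0.82, and saline mice ran from -0.22 to 0.31. The change of Inhba exceeded that of Inhbb by 1.55 to 2.76 in isotype mice, while in anti-RGMb mice it lay between -0.68 and 0.76. These values are given without a test, and Inhba and Fst were dim in saline mice. Inhbb was at the 44.7th to 49.2nd percentile in saline mice.

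The nearest genes to Inhba over the 17 mice, by the root mean square difference of log2 levels above the saline mean, were Il1rn (0.24), Chl1 (0.27), Slamf8 (0.28), Npl (0.30) and Mmp13 (0.30). Il1rn encodes the interleukin 1 receptor antagonist and Mmp13 a collagenase. Il1rn rose by 2.16 ± 0.14 in isotype over saline mice and fell by 1.47 in anti-RGMb against isotype mice (-1.47 ± 0.14). In anti-RGMb over saline mice it was higher by 0.68 ± 0.14 (limma adjusted p = 0.0044), a call that Inhba lacked. Nearest genes were picked by these same values, so similar differences follow from the choice. The nearest to Fst were Nfam1 (0.21), Man2b1 (0.21), Rnase2b (0.21), Tyrobp (0.21) and Fn1 (0.21). Tyrobp, a signalling adaptor of myeloid cells, rose by 1.097 ± 0.07 in isotype over saline mice, and Fn1, which encodes fibronectin, by 1.01 ± 0.14.

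Fstl3, a follistatin-like protein that also binds activin, went the other way from Fst. In experiment 1 it was 438, 429 and 425 in anti-RGMb mice, 350.2, 405 and 410.1 in isotype mice, and 406, 491 and 611 in saline mice. In experiment 2 it was 1631, 1774 and 1739 in anti-RGMb mice, 1201 and 1291 in isotype mice, and 1779, 1872 and 1740.5 in saline mice. Isotype mice were below all anti-RGMb mice of their experiment, and below all saline mice in experiment 2. Fstl3 fell by 0.42 in isotype against saline mice (-0.42 ± 0.09, limma adjusted p = 0.00069). It was higher by 0.29 ± 0.09 in anti-RGMb than in isotype mice (adjusted p = 0.021). The value was 0.15 in experiment 1, not past the threshold (limma adjusted p = 0.567), and 0.46 in experiment 2 (adjusted p = 0.014). The call over both was lost without isotype mouse 1 (0.27, adjusted p = 0.053), 1-2 (0.24, adjusted p = 0.074) or 2-2 (0.27, adjusted p = 0.055). The anti-RGMb minus saline difference was -0.14 ± 0.08 (95% interval -0.31 to 0.04).

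Fstl1, a secreted glycoprotein with a follistatin domain, was at or above the 94.6th percentile of every array and had no called difference. Its log2 level above saline was -0.04 to 0.27 in anti-RGMb mice (median 0.12), -0.08 to 0.21 in isotype mice (median 0.14) and -0.29 to 0.17 in saline mice (median 0.03). The 95% intervals of its differences were -0.07 to 0.27 (isotype minus saline), -0.16 to 0.17 (anti-RGMb minus isotype) and -0.06 to 0.26 (anti-RGMb minus saline).

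Bambi, which blocks BMP and activin receptor complexes and is itself a known BMP target, was the member with the largest fall in isotype mice. In experiment 1 its intensity was 249.96, 228 and 215 in anti-RGMb mice, 167, 189 and 194 in isotype mice, and 271, 284 and 243 in saline mice. In experiment 2 it was 543, 676 and 554 in anti-RGMb mice, 434 and 428 in isotype mice, and 822, 697 and 710.4 in saline mice. All isotype mice were below all others of their experiment, and anti-RGMb mice lay between by group mean, overlapping saline mice in experiment 1. Bambi fell by 0.65 in isotype against saline mice (-0.65 ± 0.08, 1.57-fold, limma adjusted p = 2.5e-06) and was higher by 0.38 ± 0.08 in anti-RGMb than in isotype mice (adjusted p = 0.0014). The difference from isotype mice was 0.34 in experiment 1, not past the threshold (limma adjusted p = 0.056), and 0.45 in experiment 2 (adjusted p = 0.0082). The anti-RGMb minus saline difference was -0.27 ± 0.07 (limma adjusted p = 0.031). This call was lost without any 1 of 8 mice (saline 2, 1-2, 2-2 or 3-2, anti-RGMb 2, 3, 1-2 or 3-2), at -0.22 to -0.27 and adjusted p of 0.055 to 0.086.

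Grem1, which encodes gremlin, was dim, between the 27.7th and the 36th percentile of the arrays. Its log2 level above saline was -0.21 to 0.13 in anti-RGMb mice (median -0.14), -0.43 to -0.06 in isotype mice (median -0.23) and -0.10 to 0.14 in saline mice (median -0.01). It was lower in isotype than in saline mice (-0.24 ± 0.07, limma adjusted p = 0.016). With isotype mouse 2-2 left out the difference was -0.17 and did not pass (adjusted p = 0.065). It was -0.19 within experiment 1, where it did not pass (limma adjusted p = 0.171), and -0.30 within experiment 2 (adjusted p = 0.033). The anti-RGMb minus isotype difference of 0.14 ± 0.07 did not pass (limma adjusted p = 0.212). Nog and Chrd, for noggin and chordin, were as dim, between the 30.2nd and the 37.6th percentile, and had no called difference. Nog had the same intensity of 69.4 in 5 of the 9 mice of experiment 1 and Chrd of 64.0 in 6. The 95% intervals of their 6 differences ran from -0.24 to 0.26.

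Endothelial markers were lower alongside Bambi, Fstl3 and Grem1. Of 8, 7 fell and 1 rose in isotype against saline mice, and 6 rose in anti-RGMb against isotype mice. Of all genes, 21.0% were called lower in the first comparison and 11.1% higher in the second. Their summed intensity was 83.2% to 95.6% of the saline mean in anti-RGMb, 66.3% to 83.3% in isotype and 96.5% to 103% in saline mice. The sum of 6 mesothelial markers was 65.5% to 129% in anti-RGMb, 52.1% to 69.0% in isotype and 81.6% to 112% in saline mice. The part of these cells in the result was not tested.

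**Figure D2:**
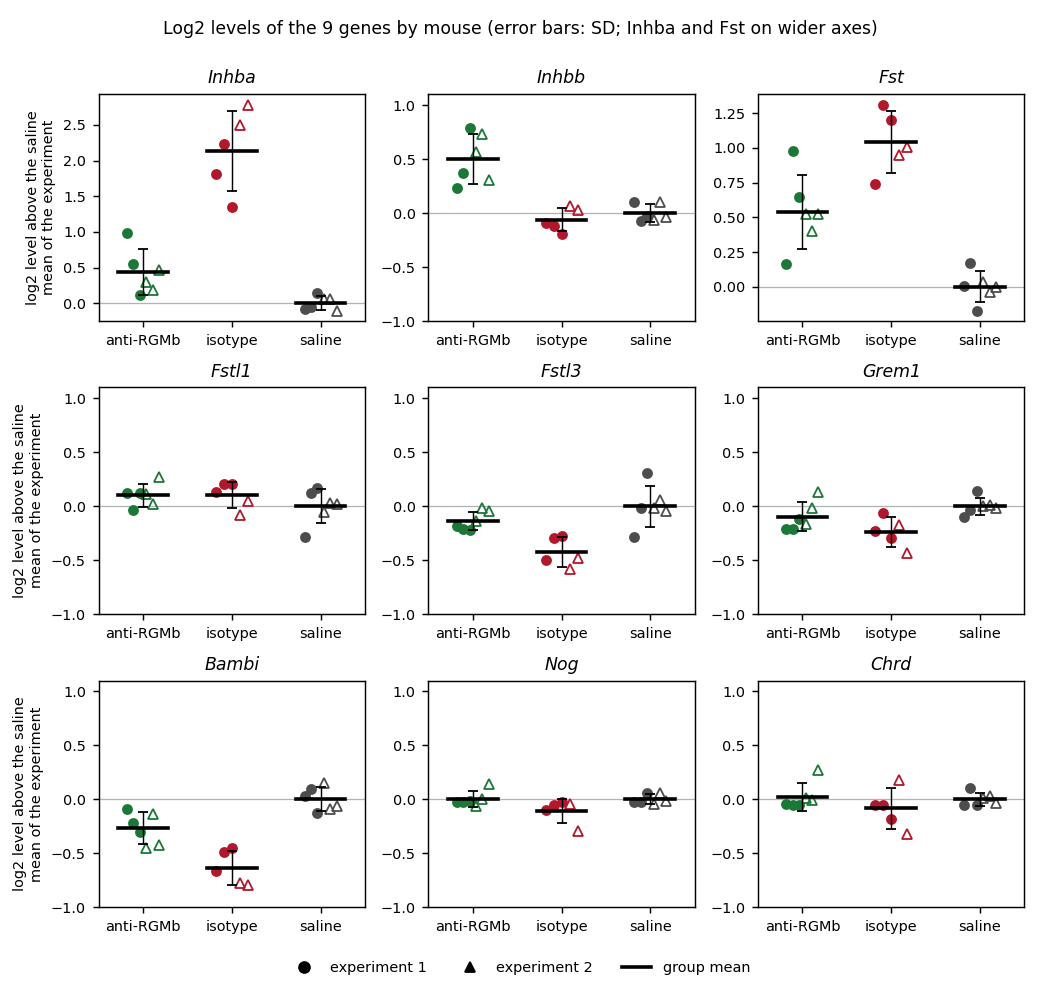
Log2 level of each of the 9 genes above the saline mean of the same experiment (vertical axis) by group; points are mice, thick bars group means, error bars SD (6 anti-RGMb, 5 isotype and 6 saline mice). Inhba and Fst, on their own axes, were highest in isotype mice, Inhbb in anti-RGMb mice, and Fstl3 and Bambi were lowest in isotype mice by group mean.

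Over the 9 genes, 5 passed in isotype against saline mice, 2 higher and 3 lower, where 35.6% of all genes passed, 14.6% higher and 21.0% lower. In anti-RGMb against isotype mice 5 passed, 3 higher and 2 lower, against 21.2% of all genes, 11.1% higher and 10.0% lower. In anti-RGMb against saline mice 3 passed, Inhbb and Fst higher and Bambi lower, against 6.50% of all genes, 4.26% higher and 2.24% lower. Groups did not overlap, in both experiments and in the same direction, for 3 members in isotype against saline mice (26.9% of all genes), 4 in anti-RGMb against isotype mice (14.8%) and 1 in anti-RGMb against saline mice (8.58%). The median difference of the 9 was -0.08, 0.11 and 0.02 in these comparisons, and that of all genes -0.04, 0.03 and -0.01. The plot of the differences shows Inhba, Fst, Fstl3 and Bambi past the threshold in both comparisons with isotype mice, with opposite signs in them. The isotype mice stand on opposite sides of these comparisons, which draws any gene toward opposite signs. Inhbb passed in both comparisons of anti-RGMb mice.

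**Figure D3:**
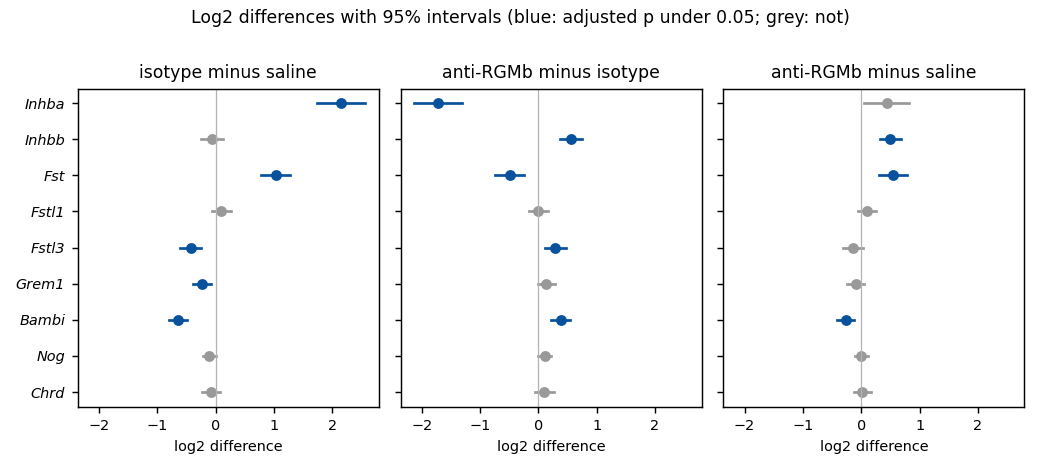
Log2 differences of the 9 genes in the 3 comparisons (limma, 17 mice, experiment as block) with 95% intervals; blue marks an adjusted p under 0.05. Inhba had the widest span, from 2.15 in isotype minus saline to -1.72 in anti-RGMb minus isotype.

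The other genes of the pathway described here were 47 measured genes of a list set out by role. In isotype against saline mice 6 were higher and 18 lower (median -0.09), and in anti-RGMb against isotype mice 14 were higher and 1 lower (median 0.10). In anti-RGMb against saline mice 3 were lower (Twsg1 -0.22, Tmeff1 -0.33, Tmeff2 -0.45) and, by limma, 0 higher (2 at an unadjusted p under 0.05). The 3 became 6 without isotype mouse 3, 5 without isotype mouse 2-2 and 1 without saline mouse 1-2. Of all genes, 35.6%, 21.2% and 6.50% passed in these comparisons. By direction these were 14.6% higher and 21.0% lower, then 11.1% higher and 10.0% lower, then 4.26% higher and 2.24% lower. The count in anti-RGMb against saline mice lay near the share of all genes.

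Of the other ligand genes (Inha, Inhbc, Inhbe, Mstn, Gdf11 and Nodal), limma called 0 of 6 in any comparison, and 0 had an unadjusted p under 0.05. Their differences ran from -0.14 to 0.15. Inha encodes the alpha chain that turns a beta chain into inhibin. In isotype against saline mice, where 21.0% of all genes were lower, 6 of 12 receptor and signal genes were lower. Among them were Tgfbr3, which encodes betaglycan, the inhibin co-receptor (-0.78 ± 0.08, limma adjusted p = 9.6e-07), the Smad anchor gene Zfyve9 (-0.59 ± 0.10) and the activin receptor gene Acvr2a (-0.45 ± 0.08). In anti-RGMb against isotype mice 5 of the 12 were higher, against 11.1% of all genes. Tgfbr3 was at 0.55 ± 0.08 (limma adjusted p = 0.00017) and Smad3 at 0.25 ± 0.05. Acvr1b, the main activin type I receptor gene, was at -0.0044 ± 0.064 in isotype minus saline and -0.0061 ± 0.064 in anti-RGMb minus isotype.

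Of 17 further antagonist genes, 8 were lower and 1 (Fstl4, 0.22) higher in isotype than in saline mice, against 21.0% and 14.6% of all genes. Crim1, for a membrane protein that binds BMPs, fell by 0.67 (-0.67 ± 0.06, limma adjusted p = 1.3e-07), Twsg1, for the chordin partner twisted gastrulation, by 0.60 (-0.60 ± 0.06) and Tmeff2 by 0.996 (-0.996 ± 0.11). In anti-RGMb against isotype mice 6 of the 17 were higher, against 11.1% of all genes. Crim1 was at 0.50 ± 0.06 (limma adjusted p = 2.5e-05) and Twsg1 at 0.38 ± 0.06. Chrdl1, a chordin-like BMP antagonist gene named after its values were seen, had the largest difference of the list in both comparisons (-1.42 ± 0.16 and 0.94 ± 0.16). The anti-RGMb minus isotype value was 0.54 in experiment 1, not past the threshold (limma adjusted p = 0.074). It was 1.44 in experiment 2 (limma adjusted p = 7.9e-05).

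Of 7 protease genes, 3 were higher and 2 lower in isotype than in saline mice, against 14.6% and 21.0% of all genes. Furin, for the convertase that cleaves activin precursors, rose by 0.40 ± 0.05 (limma adjusted p = 5.3e-06), while Htra1 (-0.55 ± 0.09) and Pcsk6 (-0.45 ± 0.07) fell. In anti-RGMb against isotype mice Furin was the 1 gene of the list that fell (-0.33 ± 0.05, limma adjusted p = 0.00017), and Htra1 rose by 0.43 ± 0.09. Of 5 genes known to respond to Smad2 and Smad3, Pmepa1 (0.32 ± 0.06) and Tgif1 (0.34 ± 0.09) rose and Smad7 (-0.43 ± 0.07) and Ltbp2 (-0.29) fell in isotype against saline mice. In anti-RGMb against isotype mice Smad7, which also answers to BMPs, rose by 0.28 ± 0.07 (limma adjusted p = 0.0053), and Pmepa1 (-0.14, adjusted p = 0.085) and Tgif1 (-0.23, adjusted p = 0.097) did not pass.

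**Figure D4:**
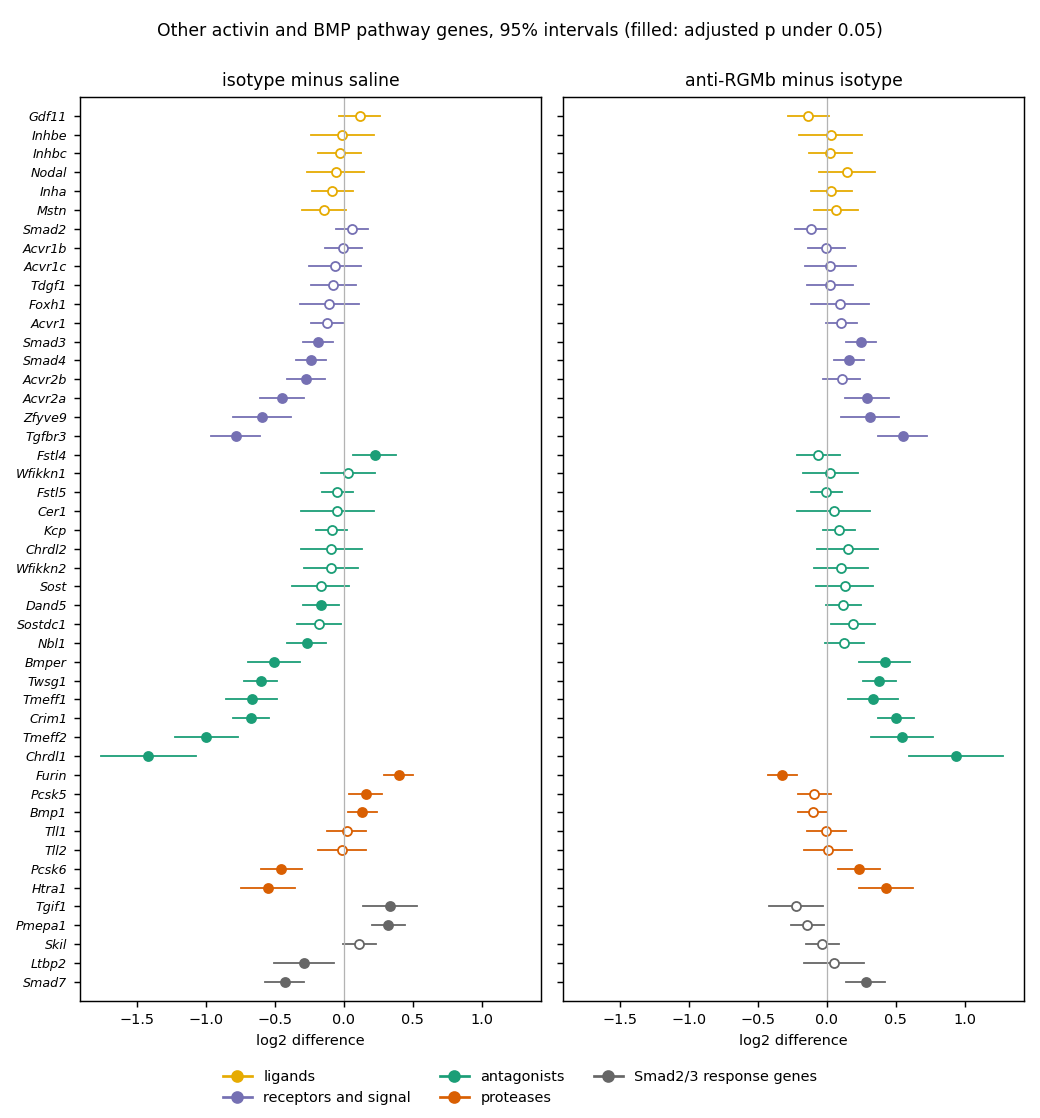
Log2 differences of the 47 measured pathway genes with 95% intervals in isotype minus saline and anti-RGMb minus isotype, coloured by role and ordered within a role by the first comparison; filled points had an adjusted p under 0.05. Most filled points lie left of 0 in isotype minus saline (18 of 24). In anti-RGMb minus isotype most lie right of 0 (14 of 15). Of all genes, 21.0% were called lower in isotype minus saline and 11.1% higher in anti-RGMb minus isotype. The isotype mice stand on opposite sides of these comparisons, which draws any gene toward opposite signs.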

How the data were processed

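Per the labels' protocols, lung RNA of 17 mice was hybridised to 17 Mouse Gene 1.0 ST arrays (Affymetrix). The deposited values are linear intensity per probe set, made by the authors with RMA per the submitters' processing notes (version not given in the sources used here). Their log2 was taken here with no added constant. Of 24679 probe sets, 21354 had 1 gene symbol, 1275 several and 2050 none. For 893 genes with several probe sets the brightest over all arrays was used. The fit (limma 3.58.1, R 4.3.3; lmFit and eBayes, 13 residual and 4.32 prior degrees of freedom) had the 3 group means and an experiment effect. It was tested on simulated data. A further fit with separate group means in each experiment gave within-experiment differences and the interaction. It used all 17 mice to estimate the spread. The number of arrays limits the precision, and p-values measure the spread between these mice. The 9 genes, the pathway list, the markers and the motifs were chosen with earlier results of these data known. Beside the 9 genes, the naming rule took per role up to 3 pathway genes with the smallest p in isotype minus saline and up to 2 in anti-RGMb minus isotype, and the 5 genes nearest to each called member with a log2 difference of at least 1. Tmeff1, Fstl4, Ltbp2, Acvr1b and Chrdl1 lay outside this rule and were named after their values were seen. Of the marker lists, Ear2 and Cfd had no probe set of 1 symbol. The other marker lists are in the closing section.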

Additional observations from a re-analysis of the deposited data

Results flagged for a closer look

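A gap test within groups of 5 or 6 mice was run on 27 sets (9 genes in 3 groups), and 3 were flagged. Chance flags about 5% of sets of independent, normally spread values. That rate need not hold for Nog and Chrd, which had repeated intensities in experiment 1. Nog in anti-RGMb mouse 3-2 was 0.14 above the saline mean, with the other 5 anti-RGMb mice at -0.06 to 0.01. Chrd in the same mouse was 0.27 above, with the others at -0.05 to 0.01. Nog in isotype mouse 2-2 was -0.30, with the other 4 isotype mice at -0.10 to -0.03. Both genes were dim. No member had a called difference between experiments (lowest limma adjusted p = 0.159, unadjusted 0.0030, for Inhba in anti-RGMb minus isotype).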

How the results depend on the processing

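The differences of Inhba and Fst in isotype minus saline, of Inhba in anti-RGMb minus isotype and of Inhbb in both comparisons of anti-RGMb mice each passed under 27 of 28 alternatives, 17 of which leave out 1 mouse. The exception was the fit with no replicate block, where levels of the 2 experiments add to the spread. There 35 genes passed between isotype and saline, 0 between anti-RGMb and isotype and 10 between anti-RGMb and saline mice, an order of comparisons kept below (481, 73 and 101 at an unadjusted p under 0.05 in limma), against 7034, 4180 and 1284 with the block. Of members and of pathway genes 0 passed in it (at an unadjusted p, 1, 1 and 0 members and 2, 0 and 0 pathway genes). Residuals of mice with the same name correlated across groups at -0.60 to 0.30 (3 of 16 above 0.1). Mice of different names were not set beside these. Residuals within such small groups also depend on each other, so this cannot decide whether the names pair the mice. With a replicate block by mouse name 6196, 3358 and 944 genes passed, and Grem1 in isotype minus saline (-0.22, adjusted p = 0.0505) and Bambi in anti-RGMb minus saline (-0.27, adjusted p = 0.082) did not. Within experiment 1, 4025, 1279 and 763 genes passed, with 2 and 1 members and 5 and 1 pathway genes in the comparisons of anti-RGMb mice. Within experiment 2, 653 genes, 1 member and 0 pathway genes passed in anti-RGMb minus saline (8 pathway genes at an unadjusted p). In that comparison array weights gave 2541 genes and 10 pathway genes, quantile normalization and leaving out dim genes gave 5 pathway genes each, and leaving out 1 mouse gave 1 (without saline mouse 1-2) to 6 (without isotype mouse 3), against 3. Its 842 higher and 442 lower genes became 843 and 700 with arrays centred on medians. The causes were not tested. Leaving out the dimmest 40% of genes gave no value for Grem1, Nog and Chrd. Array weights also lost Fstl3 in anti-RGMb minus isotype (0.24, adjusted p = 0.066).

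Signs turned for values past the threshold in neither fit. In isotype minus saline these were Inhbb within experiment 2 (0.045), Fstl1 with no replicate block (-0.022) and within experiment 2 (-0.015), and Chrd without single mice (-0.15 to 0.0023). In anti-RGMb minus isotype they were Fstl1 with a replicate block by mouse name (-0.021), array weights (-0.063), within experiment 1 (-0.11) and without single mice (-0.049 to 0.037). In anti-RGMb minus saline they were Nog with quantile normalization (-0.040), centring (-0.0096), array weights (-0.019), within experiment 1 (-0.024) and without single mice (-0.029 to 0.017), and Chrd with quantile normalization (-0.0100), array weights (-0.019), within experiment 1 (-0.048) and without single mice (-0.027 to 0.0498).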

Other observations

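The order of groups seen for Inhbb was searched for in all genes after its values were seen. Higher in anti-RGMb than in both isotype and saline mice, and not called between isotype and saline mice, were 12 of 19751 genes (0.0608%). Beside Inhbb they included Tsc22d3, a glucocorticoid-induced leucine zipper gene (0.37 ± 0.09 over isotype, 0.41 ± 0.08 over saline mice), the transcription factor gene Cebpd (0.40 ± 0.11 and 0.50 ± 0.11), the Notch ligand gene Dll1 (0.33 ± 0.07 and 0.30 ± 0.07) and the tight junction gene Cldn1 (0.49 ± 0.11 and 0.37 ± 0.11). Ifitm6 had the largest difference over isotype mice (0.83 ± 0.23). The others were Tmem252, Pilrb2, Tcim, AA986860, Ecm1 and Prtn3.

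Of 10 fibroblast markers, 4 rose and 5 fell in isotype against saline mice, and 4 rose and 3 fell in anti-RGMb against isotype mice. Of 8 smooth muscle markers, 2 fell and then 2 rose in these comparisons. Of 8 heart muscle markers, 7 fell and then 5 rose, with summed intensity of 45.8% to 154% of the saline mean in anti-RGMb, 28.3% to 69.2% in isotype and 61.2% to 175% in saline mice. Of 6 mesothelial markers 3 fell and then 2 rose. Of 5 adipose markers 1 fell and then 1 rose. Of 8 lung markers 5 fell and 1 rose, and then 4 rose and 1 fell. Of all genes, 21.0% were called lower and 14.6% higher, and then 11.1% higher and 10.0% lower. Of 7 cartilage markers limma called 0 in any comparison, and their summed intensity was 91.4% to 127% of the saline mean in anti-RGMb, 81.5% to 115% in isotype and 93.7% to 110% in saline mice.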
